A study of Mus musculus with 4 samples.

Results

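DNA replication and G1/S genes are the genes that a cell switches on to leave G1 and copy its genome. A list of 44 of them, chosen by their function, was followed in myoblasts depleted of Fxr1, and 43 had at least 1 probe under the listed name. Their 51 probes are part of the 55681 probes of the array that are not controls. Every probe whose annotated gene name is on the list was kept, 35 genes having 1 probe and 8 genes having 2. The gene listed as Cdc45l had no probe under that name.

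The data are 4 one-colour Agilent mouse expression arrays of C2C12, a mouse myoblast line. In both experiments, 1 culture was transfected with a small interfering RNA against Fxr1 (siFxr1) and 1 with a control small interfering RNA (siControl), and total RNA of each was labelled with Cy3. The siFxr1 samples are thus a transient knockdown in a cell line, with no change to the Fxr1 gene itself, and the 2 arrays of an experiment shared a slide. RNA integrity numbers in the labels were 8 for siFxr1 in experiment 1 and 9 for the other 3 samples.

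Copying of the genome is prepared in G1, when the origin recognition complex, Cdc6 and Cdt1 load the ring-shaped Mcm2 to Mcm7 helicase onto DNA, a step called licensing. At the start of S phase the helicase is activated with Cdc45 and the GINS complex, after which primase and the polymerases build the new strands around the sliding clamp Pcna. E2F transcription factors, released from retinoblastoma-family proteins at the G1/S transition, drive most of these genes. Myoblasts turn this programme off when they leave the cell cycle to differentiate. A population in which fewer cells are in S phase cannot be told apart here from one in which each cell holds less of these mRNAs, since RNA was taken from whole cultures.

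The knockdown was visible in both experiments. The brighter Fxr1 probe had a log2 normalized signal of 10.15 in siFxr1 and 13.85 in siControl in experiment 1, and 10.77 and 13.71 in experiment 2. Every chosen member probe (the brightest of a gene) was well above background on all 4 arrays, no member spot was saturated or flagged as an outlier, and 45.4% to 52.9% of all probes were well above background on an array. The myoblast markers Myod1, Des, Cdh15, Pax7, Ncam1 and Vcam1 were well above background on all 4 arrays, Myf5 on none, and Ptprc, Epcam, Cdh1, Adipoq, Plin1 and Alb, of other cell types, on none. Of the endothelial markers, Cdh5 was above background on all 4 arrays, with a log2 signal of 6.02 to 6.75, and Pecam1 on 3 of them. The experiments stood apart in muscle differentiation genes: of 14 such markers, all well above background on every array, 13 were higher in experiment 1 than in experiment 2 in both conditions. The log2 of their summed level was 18.84 (siFxr1) and 19.05 (siControl) in experiment 1, against 16.73 and 16.81 in experiment 2. Each result on the replication genes is therefore given by experiment, and the part of this difference in them was not tested.

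Most replication genes had a lower signal in siFxr1 in experiment 2, and they sat close to 0 in experiment 1. In experiment 2, 38 of the 43 members were lower in siFxr1 than in siControl, with a median log2 difference of -0.68 and a range from -1.24 to 0.72. Over the 15866 named genes well above background on both arrays of a condition, 48.4% were lower in that experiment and the median was 0.02. In experiment 1, 26 of 43 members were lower, where 47.2% of all genes were, and the members' median was -0.07 with a range from -0.63 to 0.81. The lowering in experiment 2 took in nearly the whole list, and it reached at least 1.5-fold in 26 members and at least 2-fold in 7. Among all genes, 14.6% were at least 1.5-fold lower and 5.02% at least 2-fold lower in experiment 2. In experiment 1, 1 member was at least 1.5-fold lower, against 10.8% of all genes, and 0 members were 2-fold lower, against 3.74%. Which members reached 1.5-fold there depends on the processing. With the authors' normalized table they were Mcm7 (-0.81), Gins2 (-0.78), Prim1 (-0.67) and Rfc5 (-0.60), and E2f7 was at -0.50. The members' median in experiment 1 stayed between -0.07 and -0.03 over the 6 scaling and background settings. Each of these differences sets 1 array against 1 array, so within an experiment there is no replicate and no test.

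**Figure D1:**
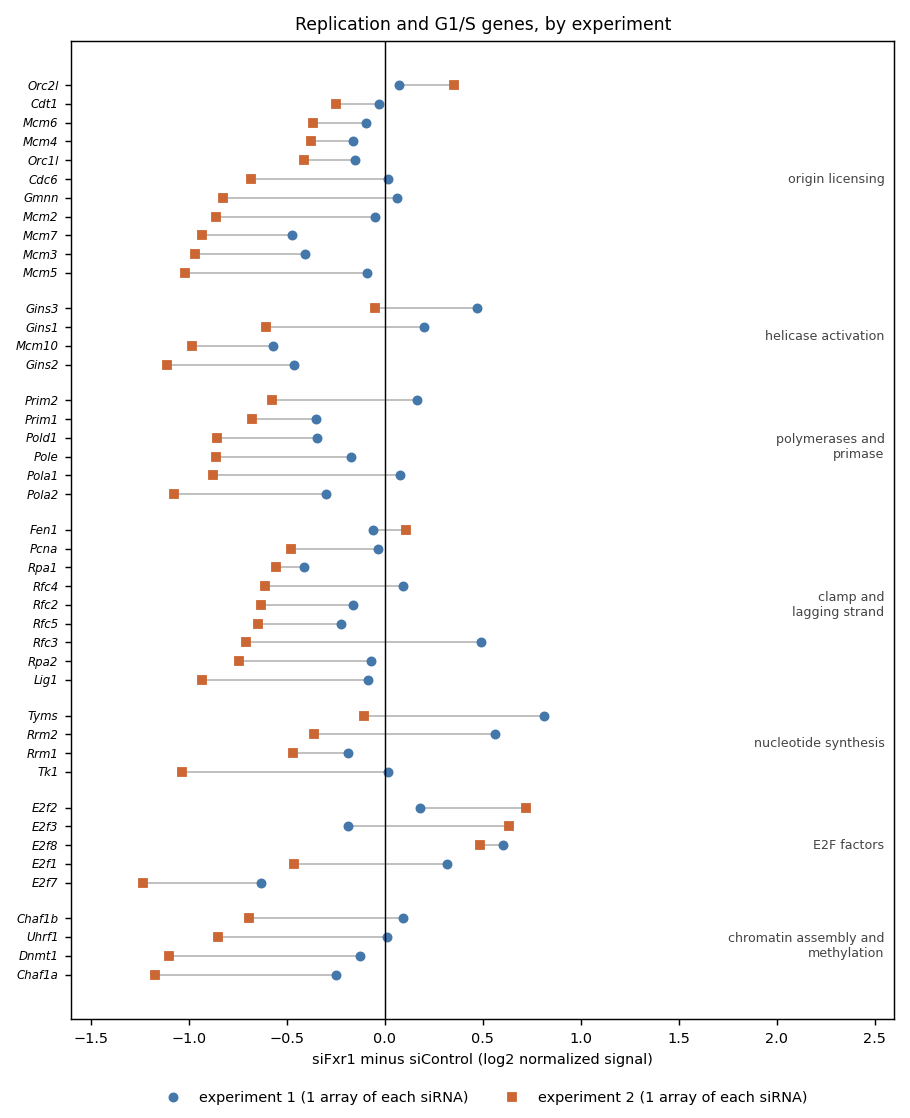
The log2 difference of siFxr1 minus siControl (x axis) is drawn for each of the 43 members (rows, grouped by role), with a blue circle for experiment 1 and an orange square for experiment 2, each 1 array against 1 array. The squares lie left of the circles in 39 members, and 3 of the 5 squares right of 0 are E2F factors.

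The 2 experiments shared the direction in part of the list. Lower in both experiments were 24 members, where 30.6% of all genes were, and 3 were higher in both, against 35% of all genes. The remaining 16 had opposite signs, against 34.4% of all genes. Over the 6 scaling and background settings, 42 of the 43 members kept their sign in experiment 2, Gins3 being the exception. In experiment 1, 28 kept it, and it turned for Orc2l, Cdt1, Mcm5, Mcm6, Gins1, Prim2, Pcna, Rfc4, Rpa2, Fen1, Lig1, Tk1, E2f1, E2f2 and Chaf1b. In the main processing only E2f7, by its brightest probe, was at least 1.5-fold lower in both experiments, against 5.29% of all genes. Over the 6 settings E2f7 ran from -0.66 to -0.46 in experiment 1, and it fell short of 1.5-fold there in some. Mcm7, Gins2, Prim1, Rfc5 and Mcm10 were at least 1.5-fold lower in both experiments under some of the other settings. Their largest differences in experiment 1 were -0.81, -0.80, -0.67, -0.60 and -0.60. In 16 members (37.2%) both siFxr1 arrays lay below both siControl arrays, against 15.1% of all genes. In Orc2l and E2f8 (4.65%) both lay above, against 17.2% of all genes. The siFxr1 minus siControl difference was more negative in experiment 2 than in experiment 1 in 39 members, against 48.6% of all genes. Over the 6 settings this count of members ran from 36 to 39. Whether the effect itself differs between the experiments could not be tested, since no degree of freedom is left for that term with 4 arrays.

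**Figure D2:**
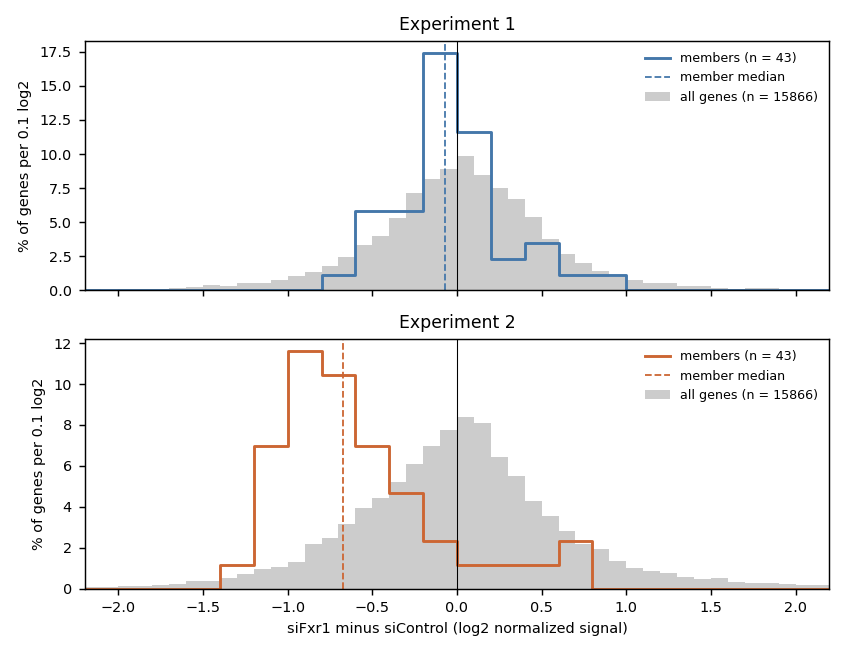
Distribution of the log2 difference siFxr1 minus siControl (x axis) as the percent of genes per 0.1 log2 (y axis), for the 43 members (line) and for the 15866 genes well above background (grey), with a panel for each experiment and a dashed line at the member median. The members straddle 0 in experiment 1, with a median of -0.07, and lie left of most genes in experiment 2, with a median of -0.68.

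Tested across the array, no member passed a threshold. With limma fitted on the 55681 probes without a term for the experiment, 0 probes were called (percent called: 0) at a Benjamini-Hochberg adjusted p under the 0.05 threshold or at a B value (log odds of a change) above 0, and the members' adjusted p ran from 0.967 to 0.998. Without adjustment, limma's p was under 0.05 for 1 member that was lower, Mcm10, and 1 that was higher, E2f8, against 2.38% and 2.58% of all probes. Pairing the arrays by experiment, with the experiment as a block, again gave 0 calls, and the members' adjusted p then ran from 0.544 to 0.978. In that limma fit E2f7 and Mcm10, both lower, had an unadjusted p of 0.0334 and 0.0385, where 4.42% of all probes were lower at the 0.05 threshold. No member was higher at that level, against 4.43% of all probes. With the block and only probes well above background, limma called 280 of 25540 probes by adjusted p (1.1%) and 354 by B (1.39%), and 0 were members, the lowest adjusted p being 0.148 for E2f7. The exact permutation test of 2 arrays against 2 cannot go below p = 0.333, so no single gene could pass it.

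The promoters were read for E2F motifs, which were not themselves a criterion for the list. Since E2F factors drive most of these genes, such motifs were anticipated, and their share is no independent support for the list. RefSeq promoter windows (assembly GRCm38.p6, 250 bases before to 50 after a transcription start) were at hand for 37 of the 44 genes. Each was searched for the 8-letter E2F motifs TTTCCCGC, TTTCGCGC, TTTGCCGC and TTTGGCGC on both strands, overlaps allowed. They were found for 17 of these 37 genes (45.9%), against 704 of all 27025 genes in the same table (2.6%). Counted by window, 17 of 47 (36.2%) held one, against 744 of 32851 (2.26%). The promoters compared were not matched for base composition. The 17 genes are Orc1l, Cdc6, Cdt1, Mcm3, Mcm5, Mcm6, Mcm7, Gins3, Pola1, Pold1, Rfc3, Lig1, E2f2, E2f3, E2f7, Uhrf1 and Dnmt1. Of these 17, 15 were lower in siFxr1 in experiment 2, with a median difference of -0.85. Of the 19 members with a probe and a window without the letters, 16 were lower, with a median of -0.61. So the lowering in experiment 2 was seen on both sides of this split, which was not tested. A match to these letters is a description of the sequence and says nothing on its own of binding.

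A few of the sites are shown to compare how the letters sit in promoters of genes from different steps, 6 of them lower in siFxr1 in experiment 2 and E2f2 higher, each within 30 bases read 5′ to 3′ on the gene's strand with the matched letters in capitals. Mcm5, Mcm7 and Dnmt1 hold 2 matches each, of which those of Mcm5 overlap and are both in the stretch shown, and for Mcm7 and Dnmt1 the match farther upstream is shown. The site of Cdc6 lies 138 bases before the start (chr11:98908002-98908031, plus strand), that of Mcm5 153 bases (chr8:75109345-75109374, plus strand) and that of Mcm7 165 bases (chr5:138172030-138172059, minus strand). The site of Pola1 lies 138 bases before the start (chrX:93632275-93632304, minus strand), that of E2f7 198 bases (chr10:110745230-110745259, plus strand) and that of Dnmt1 219 bases (chr9:20952824-20952853, minus strand). The letters of E2f2 fall within the 50 bases after the start (chr4:136172294-136172323, plus strand).
Cdc6: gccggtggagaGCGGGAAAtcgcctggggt
Mcm5: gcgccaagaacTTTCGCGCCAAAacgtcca
Mcm7: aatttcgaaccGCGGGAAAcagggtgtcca
Pola1: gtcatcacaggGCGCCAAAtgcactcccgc
E2f7: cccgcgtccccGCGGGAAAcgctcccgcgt
Dnmt1: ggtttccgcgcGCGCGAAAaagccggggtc
E2f2: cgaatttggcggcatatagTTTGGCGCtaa
In Cdc6, Mcm7 and E2f7 the matched letters are the same, GCGGGAAA, the reverse complement of TTTCCCGC.

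The licensing genes were lower in experiment 2 in 10 of 11 cases, with a median log2 difference of -0.68, and 6 of them were at least 1.5-fold lower. In experiment 1 the median was -0.09, and 8 were lower in both experiments. Mcm7, a subunit of the helicase ring, had a log2 signal of 14.13 in siFxr1 and 14.60 in siControl in experiment 1, and of 14.39 and 15.32 in experiment 2. Both siFxr1 arrays thus lay below both siControl arrays, and the mean difference of -0.70 had an SE of 0.33 without the block and 0.23 with it (limma adjusted p = 0.975 and 0.568). Mcm3, of the same ring, went from 13.42 in siControl to 13.01 in siFxr1 in experiment 1 and from 13.83 to 12.87 in experiment 2, again with no overlap of the groups. Mcm5 showed its difference in experiment 2 alone. Its signal was 13.35 in siFxr1 and 13.44 in siControl in experiment 1, and 13.55 and 14.57 in experiment 2, so the siFxr1 array of experiment 2 was above the siControl array of experiment 1 and the groups overlapped. The other ring subunits Mcm2, Mcm4 and Mcm6 were lower in both experiments, with differences of -0.05 to -0.16 in experiment 1 and of -0.37 to -0.86 in experiment 2. Mcm2, Mcm3, Mcm4 and Mcm7 were lower in both experiments under each of the 6 scaling and background settings compared, while the sign of Mcm5 and Mcm6 in experiment 1 turned among them. Mcm4 ran from -0.51 to -0.07 in experiment 1 and from -0.38 to -0.29 in experiment 2. The experiment with its larger difference thus depends on the setting.

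The loaders of the ring were less even. Cdc6, which helps the origin recognition complex to load the helicase, had 9.35 in siFxr1 and 9.34 in siControl in experiment 1 and 8.61 and 9.29 in experiment 2. Its second probe differed by -0.06 and -1.39, so both probes placed the difference in experiment 2. Cdt1, the partner of Cdc6 in loading, had 14.11 in siFxr1 and 14.14 in siControl and then 13.85 and 14.10, so its siFxr1 arrays overlapped with the controls. Gmnn encodes geminin, the inhibitor of Cdt1, and differed by 0.06 in experiment 1 and -0.83 in experiment 2. Of the origin recognition subunits, Orc1l differed by -0.15 and -0.41 and Orc2l by 0.07 and 0.35. Orc2l was the only licensing gene that was higher in siFxr1 in experiment 2, and its sign in experiment 1 turned among the settings.

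All 4 helicase activation genes with a probe were lower in experiment 2, with a median of -0.79, and 2 of them were also lower in experiment 1. Mcm10, which helps to activate the loaded helicase and brings in polymerase alpha, had 11.63 in siFxr1 and 12.20 in siControl in experiment 1 and 11.45 and 12.43 in experiment 2. Its arrays did not overlap between the conditions, and the mean difference was -0.78 (SE 0.19 without the block and 0.23 with it, limma adjusted p = 0.967 and 0.552). Gins2, a subunit of the GINS complex that travels with the helicase, went from 11.15 to 10.69 and from 11.08 to 9.98 from siControl to siFxr1, also with no overlap. Its partners were not alike: Gins1 differed by 0.20 and -0.60, and Gins3 by 0.47 and -0.05. The sign of Gins1 in experiment 1 turned among the scaling and background settings, and that of Gins3 in experiment 2. The remaining subunit Gins4, which is not on the list, differed by -0.20 and -0.28. A probe annotated with the newer name Cdc45, which the naming rule leaves out, had 7.65 in siFxr1 and 7.87 in siControl in experiment 1 and 7.01 and 8.38 in experiment 2.

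Polymerase and primase genes were lower in experiment 2 in all 6 cases, with differences from -0.57 to -1.08 and a median of -0.86. In experiment 1 their median was -0.24, and 4 were lower. Pola2, the accessory subunit of polymerase alpha, had 8.03 in siFxr1 and 8.33 in siControl in experiment 1 and 8.70 and 9.78 in experiment 2. Pold1, the catalytic subunit of the lagging-strand polymerase delta, had 11.997 and 12.34 in experiment 1 and 12.71 and 13.56 in experiment 2. Pole, the catalytic subunit of the leading-strand polymerase epsilon, had 11.07 and 11.25, then 12.25 and 13.11. In these 3 genes siFxr1 was below siControl in both experiments, yet the siFxr1 array of experiment 2 stood above the siControl array of experiment 1, so the groups overlapped. The second probe of Pole was not well above background on any array. Pola1, the catalytic subunit of polymerase alpha, had 11.79 in siFxr1 and 11.71 in siControl in experiment 1 and 10.88 and 11.75 in experiment 2, which puts 3 arrays together and the siFxr1 array of experiment 2 apart. The primase subunits Prim1 and Prim2 differed by -0.35 and 0.16 in experiment 1 and by -0.68 and -0.57 in experiment 2. Over the settings Prim1 ran from -0.67 to -0.35 in experiment 1, and the sign of Prim2 there turned.

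Among the 9 genes of the clamp, the clamp loader, single-strand binding and lagging-strand processing, 8 were lower in experiment 2, with a median of -0.63, and 6 in both experiments. Pcna, the sliding clamp, had 15.50 in siFxr1 and 15.53 in siControl in experiment 1 and 14.86 and 15.34 in experiment 2. The chosen probes of the clamp loader subunits Rfc2, Rfc3, Rfc4 and Rfc5 differed by -0.61 to -0.71 in experiment 2 and by -0.22 to 0.49 in experiment 1. Over the settings Rfc5 ran from -0.60 to -0.22 in experiment 1. The second probe of Rfc4 differed by -0.23 in experiment 1, where the chosen one was at 0.09, and by -0.53 in experiment 2. Rfc3 lay on opposite sides in the experiments, with 11.44 in siFxr1 and 10.95 in siControl in experiment 1 and 10.55 and 11.26 in experiment 2. Rpa1, the large subunit of the single-strand binding protein, was lower by a like amount in both experiments, at -0.41 and -0.55, and its second probe differed by -0.35 and -0.57. Its partner Rpa2 differed by -0.07 and -0.74. Lig1, the ligase that seals Okazaki fragments, differed by -0.08 and -0.93. Fen1, the nuclease that trims them, was the exception, at -0.06 and 0.11.

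Of the nucleotide synthesis genes, 3 of 4 were higher in siFxr1 in experiment 1. For Tk1 this was by 0.02, and its sign there turned among the settings, from -0.15 to 0.04. All 4 were lower in experiment 2, with a median of -0.42, and 1 of them, Rrm1, was lower in both. Tk1, the thymidine kinase of the salvage pathway, had 13.83 in siFxr1 and 13.81 in siControl in experiment 1 and 13.56 and 14.59 in experiment 2, a 2.05-fold lower signal in the second. Rrm2, the small subunit of ribonucleotide reductase, had 16.21 and 15.64 in experiment 1 and 16.35 and 16.71 in experiment 2, so the sign turned between the experiments. Tyms, the thymidylate synthase, differed by 0.81 and -0.10. Rrm1, the large reductase subunit, differed by -0.19 and -0.47, with both siFxr1 arrays below both controls. Over the settings Rrm1 ran from -0.56 to -0.10 in experiment 1 and from -0.47 to -0.38 in experiment 2. The experiment with its larger difference thus depends on the setting.

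The E2F factors lay on different sides of 0. E2f7, an atypical E2F that represses its targets, had 11.39 in siFxr1 and 12.02 in siControl in experiment 1 and 10.67 and 11.90 in experiment 2 (chr10:110224331-110224390 of mm9). This was 1.55-fold and 2.35-fold lower, a mean difference of -0.93 (SE 0.32 without the block and 0.26 with it, limma adjusted p = 0.975 and 0.544). Its dimmer probe differed by 0.03 and -0.84, so the 2 probes disagreed in experiment 1. E2f8, the other atypical repressor, had 12.70 in siFxr1 and 12.10 in siControl in experiment 1 and 12.52 and 12.04 in experiment 2, a mean difference of 0.55 (SE 0.16 without the block and 0.20 with it, limma adjusted p = 0.975 and 0.580). It was the only member higher in both experiments under all 6 scaling and background settings, from 0.60 to 0.86 in experiment 1 and from 0.46 to 0.50 in experiment 2. By their brightest probes, the paired repressors thus stood on opposite sides in both experiments.

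The activating E2F genes were not alike either. E2f1 had 11.72 in siFxr1 and 11.40 in siControl in experiment 1 and 11.17 and 11.64 in experiment 2. Its difference in experiment 1 ran from -0.03 to 0.33 over the settings, so its sign there depends on them. E2f2 had 14.24 and 14.06, then 13.39 and 12.67, so it was higher in siFxr1 in both experiments. In experiment 1 its difference ran from -0.05 to 0.26 over the settings, and in experiment 2 from 0.72 to 0.77. E2f3 had 12.31 in siFxr1 and 12.50 in siControl in experiment 1 and 12.42 and 11.79 in experiment 2. Its second probe differed by 0.14 and 0.95, so both E2f3 probes were higher in siFxr1 in experiment 2. Over the 5 E2F genes the median difference in experiment 2 was 0.49.

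**Figure D3:**
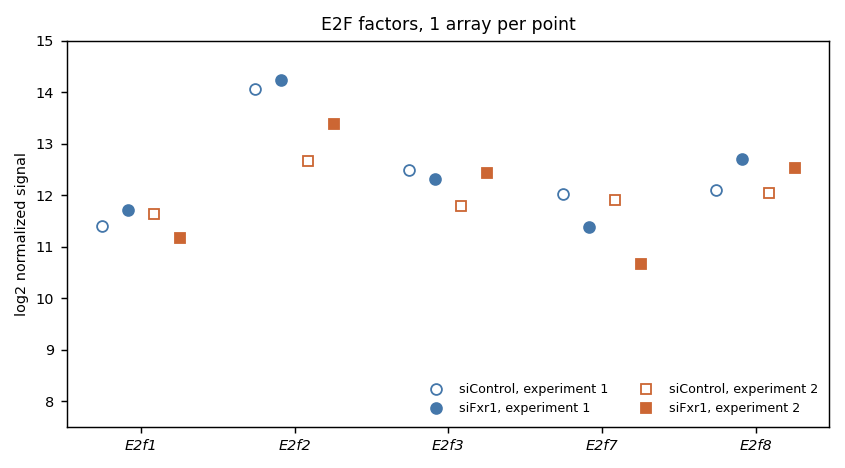
The log2 normalized signal (y axis) of the 5 E2F genes on each of the 4 arrays, with open symbols for siControl, filled symbols for siFxr1, circles for experiment 1 and squares for experiment 2. E2f7 has both filled symbols below the open ones, E2f8 both above, and E2f2 lies higher in experiment 1 than in experiment 2 in both conditions.

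The chromatin genes held 2 of the 7 members that were at least 2-fold lower in experiment 2. Chaf1a, the large subunit of the factor that puts histones on new DNA, had 11.85 in siFxr1 and 12.10 in siControl in experiment 1 and 11.64 and 12.81 in experiment 2, with no overlap. Dnmt1, the methyltransferase that copies DNA methylation to the new strand, had 10.01 and 10.14 in experiment 1 and 10.88 and 11.98 in experiment 2, with overlap. Chaf1b, the partner of Chaf1a, differed by 0.09 and -0.69, and Uhrf1, which guides Dnmt1 to new DNA, by 0.01 and -0.85. All 4 genes were at least 1.5-fold lower in experiment 2, and their median was -0.97. In experiment 1 the median was -0.06. The second probe of Chaf1b differed by 0.05 and -0.67 and that of Uhrf1 by -0.21 and -0.91, so the Uhrf1 probes disagreed in sign in experiment 1.

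Across arrays, the siFxr1 array of experiment 2 was the low one and the siControl array of the same experiment the high one. The siControl array of experiment 2 held the highest signal in 23 of 43 members, where it did so in 26.5% of all genes. The siFxr1 array of that experiment held the lowest in 25 members, against 23.1% of all genes, and the highest in 1. The member medians were 12.63 in siFxr1 and 12.65 in siControl in experiment 1, and 12.42 and 12.93 in experiment 2. By these medians the arrays of experiment 1 lay between those of experiment 2, which did not hold for every member.

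**Figure D4:**
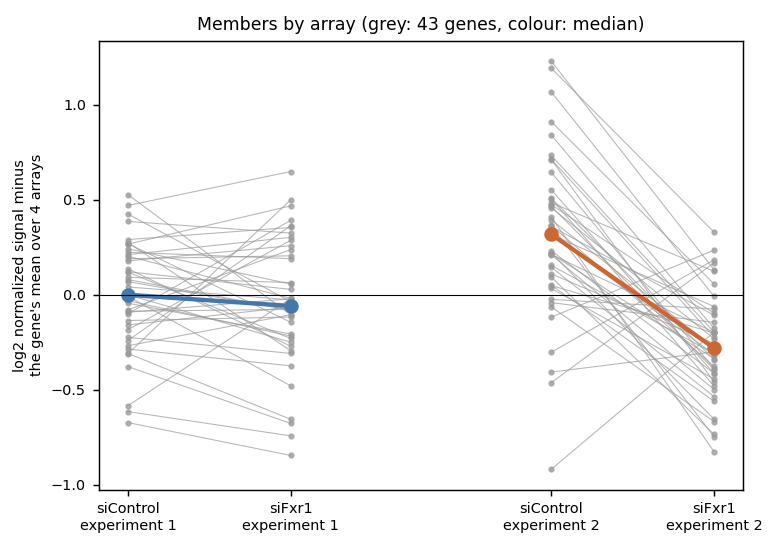
Each member's log2 normalized signal minus its own mean over the 4 arrays (y axis), by array (x axis), with a grey line joining the 2 arrays of an experiment and a coloured line for the median of the 43 members. The median is nearly level in experiment 1 and drops from siControl to siFxr1 in experiment 2.

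Compared between experiments, the members split by condition. In siControl the median log2 difference of experiment 1 minus experiment 2 was -0.24, and in siFxr1 it was 0.23, where both medians over all genes were 0.06. In 17 members the siControl array was lower and the siFxr1 array higher in experiment 1, against 12.9% of all genes. Lower in experiment 1 in both conditions were 11 members, against 33.4% of all genes, and 13 were higher, against 41.4%. In limma with the siRNA as a term, 0 probes passed by adjusted p, while 664 of 55681 (1.19%) passed by B and 0 members were among them. Among probes well above background, 8.21% were lower and 8.79% higher in experiment 1, and 3 members passed. Pole was lower in experiment 1, by -1.52 (SE 0.27, limma adjusted p = 0.019), as was Dnmt1, by -1.36 (SE 0.30, limma adjusted p = 0.034). E2f2 was higher in experiment 1, by 1.12 (SE 0.26, limma adjusted p = 0.037). Other members with large differences of 1 sign in both conditions were Pola2, Pold1, Mcm5 and Rrm2, lower in experiment 1 by -0.61 to -1.06, and Gins1, Fen1 and Gmnn, higher by 0.64 to 0.73, and none of these passed in that fit. With other background handling or the authors' table, Fen1 passed under 3 settings, and Pold1 and Mcm7 under 1 and 2. Those settings also called many more probes of the whole array than the 664 above. Experiment and slide are the same split and cannot be told apart.

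Genes of the same pathway that are not on the list were also mostly lower in experiment 2, though by less than the members. Of 47 further replication and E2F-related genes, 45 had a probe, with a median difference of -0.01 in experiment 1 and -0.52 in experiment 2. They were lower in 24 and 34 cases, where 47.2% and 48.4% of all genes were. In both experiments 21 were lower and 8 higher, against 30.6% and 35% of all genes. At least 1.5-fold lower in experiment 2 were 37.8% of them, against 60.5% of the members and 14.6% of all genes. No gene of this list passed by adjusted p in limma, with or without the block. With the block and only probes well above background, Dck passed by B, at 0.02, as did 1.39% of these probes. With the block, 5 had an unadjusted limma p under the threshold, and all 5 were lower, against 4.42% of all probes: Orc3l, Mcm8, Timeless, Dck and Rbl2. Timeless, which steadies the replication fork, had 10.53 in siFxr1 and 11.66 in siControl in experiment 1 and 10.92 and 12.39 in experiment 2. Dck, the deoxycytidine kinase of nucleotide salvage, had 7.52 and 9.07, then 6.73 and 8.10. In both genes the siFxr1 arrays lay below both siControl arrays, and unlike the members they were lower by more than 1 log2 unit in experiment 1. Rbl2, a retinoblastoma-family protein that binds E2F factors, differed by -0.73 and -1.16. The other proteins of that family, Rb1 and Rbl1, differed by -0.47 and -0.01 in experiment 1 and by 0.51 and -0.68 in experiment 2.

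The brightest probe of Cdkn1a, the inhibitor of the G1/S kinases that the study followed, had 15.52 in siFxr1 and 15.44 in siControl in experiment 1 and 15.04 and 13.33 in experiment 2. The siControl array of experiment 2 was thus the low one for Cdkn1a and the high one for most members. With 4 arrays the relation of the 2 patterns was not tested.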

How the data were processed

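The 4 Agilent arrays each held total RNA of 1 transfected C2C12 culture, with 2 biological replicates per condition according to the methods. Samples were assigned to condition and experiment by their labels. Per the file headers, the authors deposited the intensity of each spot from Agilent Feature Extraction 10.7.3.1, background-corrected within the array. Normalized intensities were deposited as a further table, used as an alternative. Its scale is not stated. It was taken as linear, since its columns have medians of 126 to 126.75 and rank the spots as the median intensity does.

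In R 4.3.3 with limma 3.58.1, log2 background-corrected intensities were quantile-normalized over 59305 spots that are not controls, outlier spots were set to missing, and spots of a probe were averaged. A log2 difference of 1 is 2-fold. The model had the siRNA as its only term (lmFit, eBayes, expected share of changed probes 0.01), and a call needed B above 0 or a Benjamini-Hochberg adjusted p under 0.05 over all 55681 probes. A probe was well above background if the software marked at least 0.5 of its spots. A gene was read by its brightest probe, and positions are on mm9. Symbols are those of the array design. The number of arrays limits the precision.

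Replicate numbers are experiments and pair the arrays: arrays of the same number deviated together from their condition mean (r of 0.714), and the first principal component (60.8% of the variance) separated the experiments. The fits were tested on simulated data with a common spread and with changes far larger than the mean difference of any member. That test does not show whether differences of the members' size would be found.

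The members and lists were chosen with earlier results of these data known. Values by array are given for up to 12 members with the largest mean difference of 1 sign in both experiments, up to 10 with the largest difference between experiments and up to 4 with opposite signs, plus others of the same role. Alternatives were other scaling (75th percentile), background corrections (normexp with an offset of 50, median minus background, none), the authors' table, filters on dim probes, the block, the 4 ratios, a variance trend, the mean over a gene's probes, and each array left out.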

Additional observations from a re-analysis of the deposited data

How the results depend on the processing

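Against 0 probes called between siFxr1 and siControl, the replicate block alone gave 0, the block with only probes well above background 354, the block with median signal minus background 345, and the 4 ratios as observations, which share arrays and are not independent, 1107, with 0 members among them in each. Between the experiments, against 664, the counts were 5846 with scaling to the 75th percentile, 4496 with normexp, 3686 with median minus background, 5092 with no correction, 5450 with the authors' table and 4342 with only probes well above background. E2f2 was the only member called with the 75th percentile, and Pole and Dnmt1 were among the members called in each of the others. Fen1 was called with normexp, no correction and the authors' table, Mcm7 with the last 2 of these, and Pold1 with the authors' table. The counts between the experiments are of 55681 probes, or of 25540 with only probes well above background. Calls of single members stand beside these array-wide counts and were not tested against them. Leaving out 1 array gave 0 to 325, with 0 without siControl of experiment 1, and these fits had no siRNA term. Members higher in both experiments, against 3, numbered 5 with scaling to the 75th percentile and 1 with median minus background, no correction or the authors' table, while members lower in experiment 1 in both conditions, against 11, numbered 5 with the 75th percentile. The cause of these shifts was not tested.

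Over the 6 scaling and background settings, 37 members were lower in experiment 2 in each, 18 were lower in both experiments in each, and 28 kept their sign in experiment 1. Scaling to the 75th percentile moved the median of all genes between the experiments from 0.06 to 0.23. With 1 array left out, the members' median siFxr1 minus siControl difference ran from -0.46 to -0.21 and that between the experiments from -0.22 to 0.28. Single genes whose sign turned ran from -1.41 to 0.035 (Pola2), -1.54 to 0.31 (Dnmt1), -1.21 to 0.0091 (Pold1), -1.12 to 0.010 (Mcm5), -1.45 to 0.41 (Pole), -0.55 to 0.34 (Rfc3), -0.86 to 0.058 (Pola1) and -0.43 to 0.64 (Rrm2). Without siControl of experiment 2, Pola2, Dnmt1, Pold1, Mcm5, Pole and Rfc3 were above 0. Without siFxr1 of experiment 1 Pole was, at 0.069, and without siFxr1 of experiment 2 Rfc3 and Pola1 were. Rrm2 was below 0 without siControl of experiment 1. These fits with an array left out had no term for the experiment. The siRNA left with 1 array was thus set against the mean of both experiments for the other. Such a value carries part of the difference between the experiments. The block changed no call for a member.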

Other observations

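Further replication genes outside the list also differed most in experiment 2. Dscc1, which loads the clamp together with Chtf18 for sister chromatid cohesion, differed by -0.44 in experiment 1 and -1.35 in experiment 2, and Rnaseh2a, a subunit of the nuclease that removes RNA from DNA, by -0.13 and -1.23. Among the genes higher in siFxr1 in both experiments were Dctd, a deaminase of pyrimidine deoxynucleotides, at 0.52 and 1.69, and E2f6, an E2F that represses without binding retinoblastoma proteins, at 0.48 and 0.70. None passed by adjusted p in limma. These genes were chosen after their values were seen.

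Across the 43 members, the siFxr1 minus siControl differences of the experiments correlated at Pearson's r of 0.493 and Spearman's rho of 0.510, against an r of 0.538 across all genes. Genes are not independent replicates, and all points come from the same 4 arrays.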
